A study of Mus musculus with 8 samples.

Results

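The aminoacyl-tRNA synthetase genes were followed in keratinocytes, which make up most of the epidermis, cultured from mice. The set was chosen by gene symbol and held 36 of the 19457 genes in the deposited table, 20 for cytosolic enzymes and 16, with symbols ending in 2, for mitochondrial enzymes. Gars and Kars, counted here as cytosolic, each encode the enzyme of both compartments. All 36 had a row, with Mars1 listed under its older symbol Mars, and all 36 passed the filter on low values (a mean of at least 1 aligned base per Mb). RNA was taken before confluence from 4 wild-type (WT) libraries and 4 libraries of the genotype labelled HdR, which the design text names as HOIL1 ΔRING1. HOIL-1L, the product of Rbck1, belongs to LUBAC, which builds linear ubiquitin chains, and the comparison asks which transcripts differ when its first RING domain is missing. Strain, age and sex of the mice, any treatment, and the number of animals or cultures behind the 4 libraries of each genotype are not given in the sources used here, so p-values measure only the spread between these libraries.

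Each synthetase joins 1 kind of amino acid to its transfer RNAs, which then deliver it to the ribosome. Nuclear genes encode separate enzyme sets for the cytosol and for the mitochondrial matrix. Of the cytosolic enzymes, those for aspartate, glutamate and proline, isoleucine, lysine, leucine, methionine, glutamine and arginine are held together in the multisynthetase complex by the scaffold proteins AIMP1, AIMP2 and EEF1E1. Many cytosolic synthetase genes are known targets of ATF4, the transcription factor that is translated when amino acids run short.

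The WT libraries held 4.78 to 5.43 Gb of aligned bases and the HdR libraries 2.31 to 4.31 Gb, so every HdR library was shallower and depth cannot be told apart from genotype. After thinning every library to the depth of the smallest, 13 cytosolic genes were called lower, against 14 without thinning. Rbck1 was at 87.5 ± 3.4 in WT and 43.7 ± 1.87 in HdR (aligned bases per Mb, ± SD of 4 libraries), a log2 difference of -0.99 ± 0.046 (SE). This level is summed over the whole gene, so any bases missing from the HdR transcript and fewer transcripts cannot be told apart. Rnf31 (-0.13) and Sharpin (-0.11), the other LUBAC genes, were not called. The summed level of 8 keratinocyte markers, most of it Krt5 and Krt14, was 39590 to 42700 aligned bases per Mb in WT and 42500 to 43890 in HdR. Of these markers 4 were called higher (50%, against 21.2% of all tested genes) and 0 lower (23.8% of all). The largest rise was in Itgb4, at 0.43 on the log2 scale. All 5 of the 8 melanocyte markers that could be tested fell, and the sum of the 8 was 46.5 to 53.9 in WT and 22.8 to 24.7 in HdR. The sum of 8 immune markers was 52.2 to 66.1 in WT and 42.7 to 43.8 in HdR, nearly all of it Cd68, while Cd207, Adgre1 and Lyz2 were listed at 0 in all 8 libraries. Fibroblast markers summed to 0.118 to 0.88 in WT and 0.175 to 4.43 in HdR, and endothelial markers to 0.482 to 0.784 and 1.22 to 1.85. The part of these other cell types in the synthetase results was not tested. In bulk RNA, fewer cells of a type and less RNA per cell cannot be told apart.

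Most cytosolic synthetase genes fell in HdR, by amounts well under a halving. Of the 20, 14 were called lower and 3 higher, 3 were left uncalled (limma, adjusted p under 0.05), and the median log2 difference was -0.26. Over all 11870 genes tested, 45% were called, 23.8% lower and 21.2% higher, with a median of -0.01. Higher genes made up 47.1% of all calls, or 57.7% with upper-quartile scaling, under which 12 cytosolic synthetase genes were lower and 4 higher. The estimate was below 0 in 16 of the 20 genes, against 52% of all genes. In 14 of the 20 every HdR library was below every WT library and in 4 above, against 21.3% and 19.8% of all genes. The 14 falls ran from -0.62 for Aars to -0.11 for Farsb on the log2 scale. Against a fold of 1.2, a stricter question, 8 cytosolic genes were called lower (Aars, Nars, Lars, Yars, Cars, Rars, Gars and Sars) and 0 higher (9 and 0 at an unadjusted p under 0.05 in limma's treat test), where 4.58% of all genes were called lower.

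**Figure D1:**
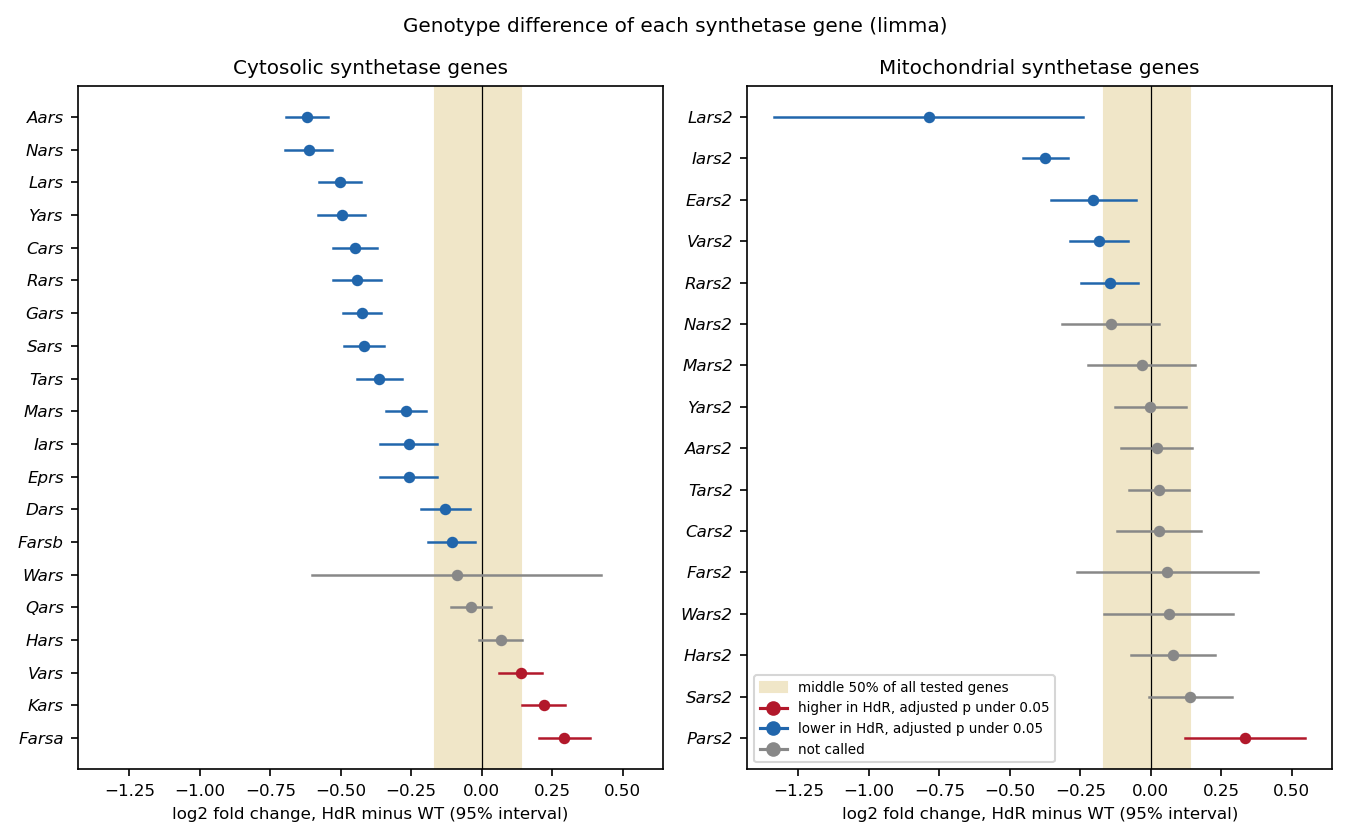
Log2 fold change, HdR minus WT, of each cytosolic (left) and mitochondrial (right) synthetase gene, with 95% intervals from limma as lines and the middle 50% of all tested genes as a shaded band. Of the cytosolic genes 14 are called lower and 3 higher, and of the mitochondrial genes 5 lower and 1 higher. Of all tested genes 23.8% are called lower and 21.2% higher.

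The largest cytosolic falls were in the alanine and asparagine enzyme genes. Aars (GRCm38 chromosome 8, 111033144 to 111057664, plus strand, the build of all gene positions here) had 446, 465, 432 and 429 aligned bases per Mb in WT 1 to 4 and 283, 288, 285 and 295 in HdR 1 to 4, a log2 difference of -0.62 ± 0.035 (SE), with adjusted p = 7.26e-10 by limma. Its lowest WT library was far above its highest HdR library. Nars had 817, 873, 780.0 and 782 aligned bases per Mb in WT 1 to 4 and 532, 552, 519.7 and 519 in HdR 1 to 4, which is -0.61 ± 0.039 on the log2 scale (SE) at a limma adjusted p of 3.22e-09. It had the highest length-scaled level of the set in both genotypes, and its HdR libraries lay within a narrow band below all WT libraries. In the annotation, 23.1% of the exon length of Aars is shared with Exosc6 on the same strand, an exosome subunit gene, so reads of the genes could be mixed. Exosc6 was itself higher, at 54.6 ± 2.18 in WT and 66.1 ± 4.39 in HdR (SD, n = 4).

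The leucine enzyme gene Lars had 318, 325, 301 and 303 aligned bases per Mb in WT 1 to 4 and 219.9, 221, 220.4 and 217 in HdR 1 to 4, a difference of -0.50 ± 0.035 in log2 units (SE, adjusted p = 9.11e-09, limma). Its HdR libraries were close to each other and below every WT library. The tyrosine enzyme gene Yars had 165, 158, 166 and 158 aligned bases per Mb in WT 1 to 4 and 114, 119, 116 and 108 in HdR 1 to 4, a log2 difference of -0.50 ± 0.040 (SE), with adjusted p = 3.92e-08 by limma. Again the genotypes did not overlap. For Cars, the cysteine enzyme gene, the levels were 205, 202, 213 and 195 aligned bases per Mb in WT 1 to 4 and 149, 154, 144 and 148 in HdR 1 to 4, which is -0.45 ± 0.038 on the log2 scale (SE) at a limma adjusted p of 7.02e-08. Rars, for arginine, fell from 299.8 ± 16.2 to 220.1 ± 6.21 (± SD, 4 libraries each), or -0.44 ± 0.040 in log2 (SE).

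Gars (chromosome 6, 55038007 to 55079500, plus strand), whose product charges glycine tRNAs in both compartments, had 516, 514, 521 and 506 aligned bases per Mb in WT 1 to 4 and 388, 378, 375 and 387 in HdR 1 to 4, a difference of -0.43 ± 0.032 in log2 units (SE, adjusted p = 1.81e-08, limma). The serine enzyme gene Sars (chromosome 3, 108424865 to 108445209, minus strand) had 472, 480.2, 473 and 456 aligned bases per Mb in WT 1 to 4 and 356, 352, 340.4 and 359 in HdR 1 to 4, a log2 difference of -0.42 ± 0.033 (SE), with adjusted p = 4.02e-08 by limma. In neither gene did the genotypes overlap, and the SD within a genotype was at most 10.1 aligned bases per Mb. Tars, for threonine, fell from 285 ± 12.3 to 222 ± 5.66 (log2 fold change -0.36 ± 0.038, SE). Mars had 224, 228, 229 and 228 aligned bases per Mb in WT 1 to 4 and 194, 188, 184 and 189 in HdR 1 to 4, with no overlap between genotypes. Smaller falls were measured in Mars (methionine, -0.27 ± 0.033), Iars (isoleucine, -0.26 ± 0.048) and Eprs (-0.26 ± 0.048), which encodes a single protein that charges both glutamate and proline tRNAs. In Dars (aspartate) and Farsb the falls were -0.13 ± 0.041 and -0.11 ± 0.040. These were the least stable calls among the cytosolic genes: Dars was lost without WT 2 (limma adjusted p = 0.0513), and Farsb without WT 2, WT 4, HdR 1, HdR 3 or HdR 4 (limma adjusted p 0.051 to 0.106).

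A few cytosolic genes went the other way. Farsa (chromosome 8, 84856989 to 84869257, plus strand), which encodes the alpha subunit of the phenylalanine enzyme, had 79.1, 74, 80.7 and 82.6 aligned bases per Mb in WT 1 to 4 and 93.7, 95.8, 101 and 98.1 in HdR 1 to 4, which is 0.29 ± 0.044 on the log2 scale (SE) at a limma adjusted p of 3.84e-05. Farsb, which encodes the beta subunit of the same enzyme, had 105, 112, 109 and 109 aligned bases per Mb in WT 1 to 4 and 97.8, 105, 102 and 98.4 in HdR 1 to 4. The HdR libraries were above WT for the alpha subunit and below WT for the beta subunit, although the lowest WT and highest HdR libraries of Farsb nearly met. Of the Farsb exon length 11.3% is shared with Sgpp2, which was too low to be tested. The lysine enzyme gene Kars (chromosome 8, 111993443 to 112011323, minus strand), the other gene that serves both compartments, had 186, 194, 198 and 198 aligned bases per Mb in WT 1 to 4 and 219.6, 223, 235 and 227 in HdR 1 to 4, a difference of 0.22 ± 0.036 in log2 units (SE, adjusted p = 9.96e-05, limma). It was higher in every HdR library, whereas Gars was lower in every one. Vars, for valine, rose from 262 ± 10.4 to 288 ± 6.26 (± SD, 4 libraries each), or 0.14 ± 0.037 in log2 (SE).

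The histidine, glutamine and tryptophan genes were not called. Hars had 147, 145, 140.4 and 135 aligned bases per Mb in WT 1 to 4 and 149, 147, 148 and 149.9 in HdR 1 to 4. Its HdR libraries lay just above all WT libraries, with a log2 difference of 0.07 (95% interval -0.01 to 0.14). Qars was at 206 ± 3.35 in WT and 200.4 ± 4.32 in HdR, a log2 difference of -0.04 (-0.11 to 0.03). Wars had 68.4, 68.1, 98.5 and 100.5 aligned bases per Mb in WT 1 to 4 and 72.2, 105, 65.8 and 71.8 in HdR 1 to 4. Its libraries fell into a lower and a higher set that cut across genotype, with WT 3, WT 4 and HdR 2 high. The 95% interval of its genotype difference was wide, -0.60 to 0.42 around -0.09 on the log2 scale. Wars is known to be induced by interferon-gamma.

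**Figure D2:**
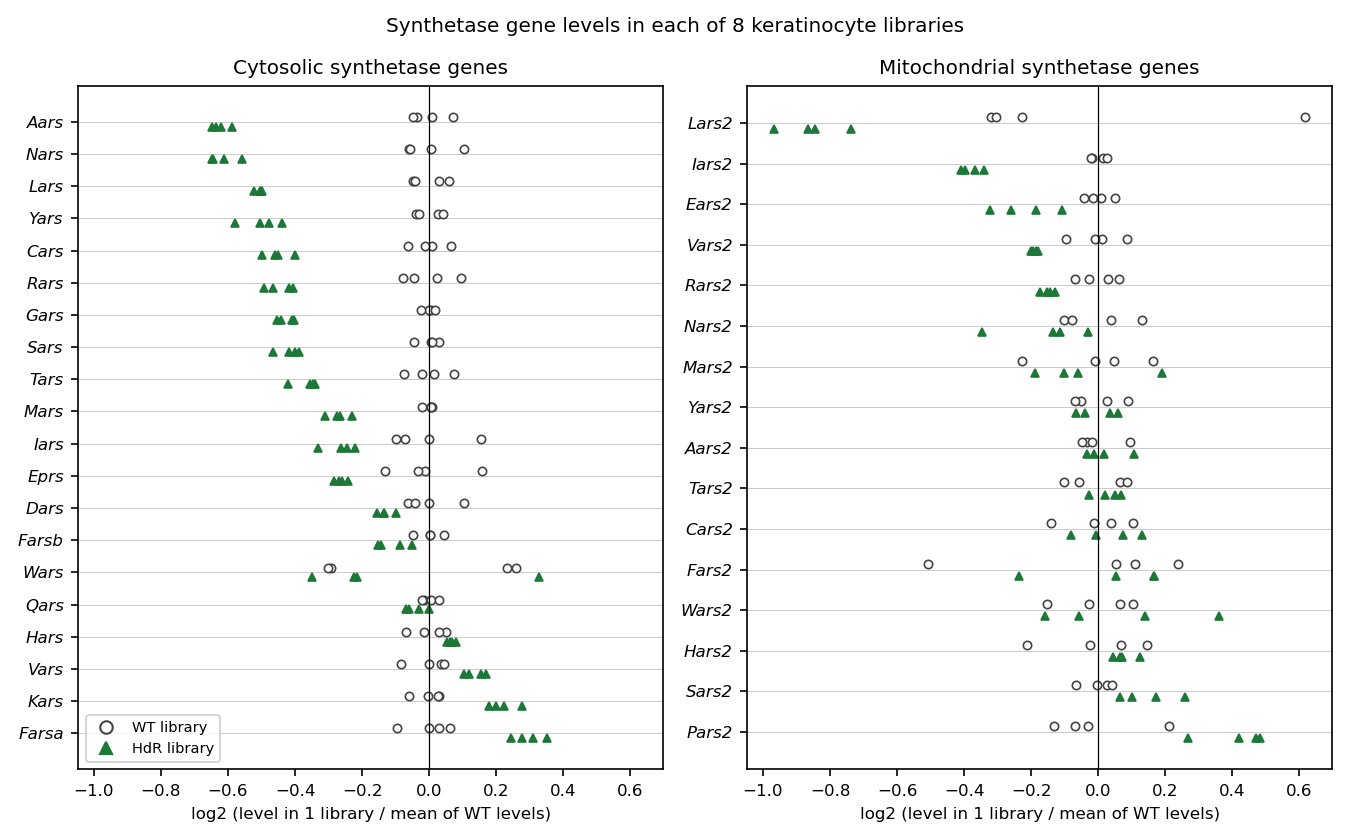
Level of each synthetase gene in each library, as log2 of its ratio to the WT mean, with open circles for the 4 WT and triangles for the 4 HdR libraries. HdR libraries lie left of every WT library in 14 of 20 cytosolic and 5 of 16 mitochondrial genes, against 21.3% of all tested genes. The spread of Wars and of Lars2 in WT stands out.

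Falls were found inside and outside the multisynthetase complex. Of its 8 synthetase genes 6 were lower (75%), 1 higher (12.5%) and 1 not called (median -0.26). Of the 12 cytosolic genes outside it 8 were lower (66.7%) and 2 higher (16.7%, median -0.39). Of all tested genes, 23.8% were called lower and 21.2% higher. The catalytic fold likewise showed falls on either side: 6 of 9 cytosolic class I genes and 7 of 10 class II genes were lower, each with a median of about the same size (-0.27 and -0.25), with Eprs, which holds an enzyme of each class, left out. Among the scaffold genes of the complex, Aimp2 was at 55.5 ± 3.87 in WT and 69.8 ± 2.9 in HdR (± SD, 4 libraries each), a log2 difference of 0.33 ± 0.053 (SE), with adjusted p = 8.79e-05 by limma. Aimp1 (0.01, 95% interval -0.08 to 0.11) and Eef1e1 (0.08, -0.03 to 0.19) were not called. In the list of 15 synthetase partners and tRNA-charging helpers that holds them, 3 were higher (20%, near the 21.2% of all tested genes) and 0 lower (23.8% of all), with the same numbers at an unadjusted limma p under 0.05. The other called genes there were Sephs1 and Sephs2, at 0.19 ± 0.047 and 0.21 ± 0.043, whose family makes the selenium donor for selenocysteine tRNA. Pstk, the kinase of that tRNA, was at 0.13 ± 0.085 and was not called.

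Promoter sequence was searched for the ATF4 binding element because it is known from several amino acid response genes. The motif searched was TGATGNAA on both strands, the core of the C/EBP-ATF response element, in the RefSeq promoters (build GRCm38.p6) from 250 bases before to 50 bases after each start. Promoters were found for 27 of the 36 genes. Cars, Hars, Lars, Nars, Rars, Vars, Wars, Hars2 and Pars2 had no entry. A match was present in 5 of 13 cytosolic genes (38.5%) and in 0 of 14 mitochondrial genes, against 4.51% of all 27025 genes with promoters. The mitochondrial share was thus near that of all genes. The 5 with a match, Aars, Gars, Iars, Tars and Yars, were all called lower (median -0.43). Of the 8 without one, 5 were lower and 2 higher (median -0.12), among them Sars at -0.42 with no match in this window. These medians leave out the cytosolic genes without an entry. Of those, Nars (-0.61), Lars (-0.50), Cars (-0.45) and Rars (-0.44) were lower, Vars was higher, and Hars and Wars were not called. Whether ATF4 has a part in the falls was not tested. Over all tested genes with a promoter entry, 34% of the 250 genes with a match were called lower and 23% of the 9094 without one. A match describes letters in a window and is not a measured binding site.

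The 120 bases before the RefSeq start are shown for Aars, Gars and Tars, which fell and have a match there. They are also shown for Farsa and Kars, which rose and have none. Genes that fell without a match in the window, such as Sars, or without a promoter entry, such as Nars and Lars, are not shown. Sequences run 5′ to 3′ on the strand of the gene, and capitals mark the match, here in its reverse-complement form. The RefSeq and GENCODE starts differ: in Aars, Iars, Tars and Yars the RefSeq start lies inside the GENCODE gene, and the whole stretch shown for Aars does too.
Aars, chr8:111033722-111033841, plus strand: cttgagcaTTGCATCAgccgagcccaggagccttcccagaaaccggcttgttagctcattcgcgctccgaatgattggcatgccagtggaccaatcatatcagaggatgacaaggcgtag
Gars, chr6:55037881-55038000, plus strand: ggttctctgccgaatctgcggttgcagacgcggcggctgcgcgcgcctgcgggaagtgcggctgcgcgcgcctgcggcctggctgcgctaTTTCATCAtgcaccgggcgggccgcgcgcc
Tars, chr15:11399659-11399778, minus strand: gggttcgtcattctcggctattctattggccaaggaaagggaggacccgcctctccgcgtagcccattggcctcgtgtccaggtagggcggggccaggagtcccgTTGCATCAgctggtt
Farsa, chr8:84856866-84856985, plus strand: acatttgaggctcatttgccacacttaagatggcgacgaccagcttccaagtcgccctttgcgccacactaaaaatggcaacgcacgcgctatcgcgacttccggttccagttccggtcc
Kars, chr8:112011355-112011474, minus strand: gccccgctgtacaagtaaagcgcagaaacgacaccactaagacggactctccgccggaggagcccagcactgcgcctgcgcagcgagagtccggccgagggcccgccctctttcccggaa

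In Iars, in Yars and, as a second match, in Aars, the element lay just after the RefSeq start, and 30 bases around it are shown with the match in capitals. The first base of the match was base 8 in Iars, base 4 in Yars and base 10 in Aars, counted from 1 at the RefSeq start.
Iars, chr13:49682126-49682155, plus strand: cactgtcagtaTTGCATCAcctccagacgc
Yars, chr4:129189895-129189924, plus strand: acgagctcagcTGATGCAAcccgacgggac
Aars, chr8:111033840-111033869, plus strand: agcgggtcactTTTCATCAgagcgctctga
Yars carries the forward form, and the other matches are reverse complements.

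The mitochondrial synthetase genes showed no common direction. Of 16 genes, 5 were lower, 1 higher and 10 without a call, at a median log2 difference of 0.01 and with 8 estimates above and 8 below 0. The share called lower (31.2%) was near that of all tested genes (23.8%). In 5 of the 16 every HdR library was below every WT library and in 2 above, against 21.3% and 19.8% of all genes. By limma's treat test 0 were called (2 lower and 0 higher at an unadjusted p under 0.05) against a fold of 1.2, where 7.47% of all genes were. The 5 lower genes were Lars2, Iars2, Ears2, Vars2 and Rars2, for leucine, isoleucine, glutamate, valine and arginine. The number called lower was 3 without WT 4, HdR 2, HdR 3 or HdR 4. It was also 3 under scaling by upper quartile or by library totals alone.

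Iars2 (chromosome 1, 185284726 to 185329396, minus strand) had 102, 99.5, 99.4 and 103 aligned bases per Mb in WT 1 to 4 and 78.2, 75.9, 76.5 and 79.6 in HdR 1 to 4, which is -0.37 ± 0.038 on the log2 scale (SE) at a limma adjusted p of 6.59e-07. The genotypes did not overlap, and no left-out library ended the call. However, 32.2% of its exon length is shared with genes on the opposite strand, Rab3gap2 and 2010103J01Rik, and the strand setting of the counting is not given in the sources used here. Rab3gap2 was at 49.3 ± 1.33 in WT and 44.5 ± 2.49 in HdR (SD, n = 4), a log2 fold change of -0.15 ± 0.050. Lars2 (chromosome 9, 123366927 to 123462666, plus strand) had 256, 134, 135 and 143 aligned bases per Mb in WT 1 to 4 and 100.2, 85.4, 93 and 91.7 in HdR 1 to 4, a difference of -0.79 ± 0.226 in log2 units (SE, adjusted p = 0.0302, limma). WT 1 stood far above the other WT libraries, and all 4 HdR libraries lay below all WT libraries. Without WT 1 the log2 fold change was -0.56 (limma adjusted p = 8.36e-07), and without any single HdR library the call was lost (limma adjusted p 0.0573 to 0.0725).

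Vars2 fell from 46.9 ± 2.43 to 41.1 ± 0.261 (± SD, 4 libraries each), or -0.18 ± 0.049 in log2 (SE), while its cytosolic counterpart Vars rose. Ears2 had 15.1, 14.1, 14.4 and 14.6 aligned bases per Mb in WT 1 to 4 and 13.5, 12.1, 12.8 and 11.6 in HdR 1 to 4, a log2 difference of -0.20 ± 0.071 (SE), with adjusted p = 0.0274 by limma. Rars2 fell from 42.6 ± 1.71 to 38.3 ± 0.485 (-0.15 ± 0.048). The Ears2 call was lost without WT 1, WT 4, HdR 2 or HdR 4 (limma adjusted p 0.0521 to 0.0774), and that of Rars2 without WT 4 or HdR 3 (0.0621 and 0.0509). The proline enzyme gene Pars2 was the single mitochondrial gene called higher, with 3.49, 3.59, 4.24 and 3.34 aligned bases per Mb in WT 1 to 4 and 5.12, 4.9, 5.08 and 4.41 in HdR 1 to 4, which is 0.34 ± 0.101 on the log2 scale (SE) at a limma adjusted p of 0.0123. Its HdR libraries were above every WT library. After thinning to the smallest library, however, its log2 fold change was 0.18 (limma adjusted p = 0.334).

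The other 10 mitochondrial genes had estimates from -0.14 (Nars2) to 0.14 (Sars2). The narrowest intervals were those of Tars2 (0.03, -0.08 to 0.14), Aars2 (0.02, -0.11 to 0.15) and Yars2 (estimate near 0, -0.13 to 0.12), so changes as large as those of Aars or Yars lie outside them. Cars2, Hars2, Mars2, Wars2 and Fars2 were at 0.03, 0.08, -0.03, 0.06 and 0.06, the last with the widest interval of the 10 (-0.26 to 0.38). Most of these genes had low levels: Wars2, Fars2 and Mars2 were at 5.06 ± 0.391, 13.9 ± 2.88 and 15.2 ± 1.69 aligned bases per Mb in WT and at 5.37 ± 0.869, 14.4 ± 1.8 and 14.9 ± 1.73 in HdR (SD, n = 4). Aars2 was at 23.5 ± 1.09 and 23.8 ± 1.04, Tars2 at 53 ± 3.37 and 54.1 ± 1.55, and Yars2 at 24.3 ± 1.23 and 24.2 ± 0.992. Sars2 had 13.4, 14.3, 14.4 and 14 aligned bases per Mb in WT 1 to 4 and 16.8, 15, 15.8 and 14.7 in HdR 1 to 4. Its HdR libraries were all slightly above WT, with a 95% interval of -0.01 to 0.29 on the log2 scale.

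For 13 amino acids the set holds 1 cytosolic and 1 mitochondrial gene, and in 10 of these pairs the cytosolic gene had the more negative log2 fold change. The median difference, cytosolic minus mitochondrial, was -0.30. For alanine the log2 ratio of Aars to Aars2 was 4.24 ± 0.080 in WT and 3.59 ± 0.070 in HdR (SD, n = 4), and the genotypes did not overlap. For asparagine it was 5.88 ± 0.036 and 5.42 ± 0.175, for tyrosine 2.74 ± 0.078 and 2.24 ± 0.061, and for cysteine 3.47 ± 0.132 and 2.99 ± 0.118. Among the 10 pairs, the ratios of the genotypes overlapped for histidine (Hars minus Hars2, -0.01), methionine and tryptophan. The exons of Hars and Hars2 share 195 bases on opposite strands, 9.8% of Hars and 5.8% of Hars2. With the strand setting not given, reads of this pair could be mixed. For leucine, isoleucine and valine the mitochondrial gene had the more negative log2 fold change. The Lars to Lars2 ratio was 0.958 ± 0.438 in WT and 1.25 ± 0.097 in HdR and overlapped, that of Iars to Iars2 ran from 1.30 to 1.56 and from 1.47 to 1.57 and overlapped, and that of Vars to Vars2 was higher in every HdR library (2.48 ± 0.097 and 2.81 ± 0.040). These ratios are of unscaled coverage, so they compare a pair between libraries and not the amounts of its members.

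**Figure D3:**
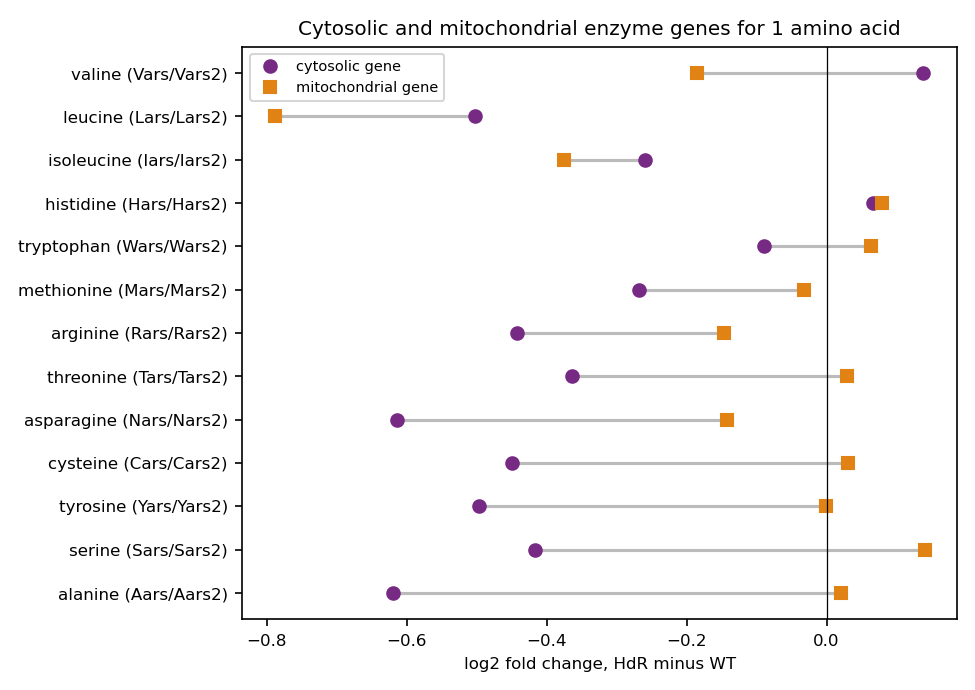
Log2 fold change, HdR minus WT, of the cytosolic (circles) and mitochondrial (squares) enzyme gene for each of 13 amino acids, joined by a line. The cytosolic gene lies to the left in 10 pairs and to the right for valine, leucine and isoleucine.

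To compare levels between genes, each level was divided by the length of the annotated exons of the gene (aligned bases per Mb per kb). In WT the cytosolic genes ran from 29.2 for Wars to 278 for Nars on this length-scaled level, and the mitochondrial genes from 1.15 for Wars2 to 42.9 for Lars2. Apart from Wars, every cytosolic gene had a higher mean WT level than every mitochondrial gene. Gars was second to Nars, at 216, followed by Rars (142) and Sars (129), and all 4 fell. Summed over the class, the cytosolic length-scaled level was 1787, 1850.0, 1775 and 1766 in WT 1 to 4 and 1453, 1473, 1450.0 and 1460.0 in HdR 1 to 4. The mitochondrial sum was 185.1, 154.3, 151.2 and 159.0 in WT and 140.1, 135.0, 136.6 and 137.4 in HdR. Both sums were lower in every HdR library. Most of the mitochondrial fall lay in Lars2 (42.9 in WT, 23.8 in HdR) and Iars2 (15.1 and 11.6). With Lars2 left out, a choice made after seeing the data, the mitochondrial sum was 119.5 ± 2.42 in WT and 113.5 ± 0.733 in HdR (SD, n = 4). The ratio of the full sums overlapped between genotypes, 11.1 ± 1.05 in WT and 10.6 ± 0.221 in HdR (SD, n = 4). This overlap rested on Lars2. With Lars2 left out, chosen after seeing the data, the ratio was 14.4 to 15.4 in WT and 12.7 to 13.0 in HdR, and the genotypes separated.

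**Figure D4:**
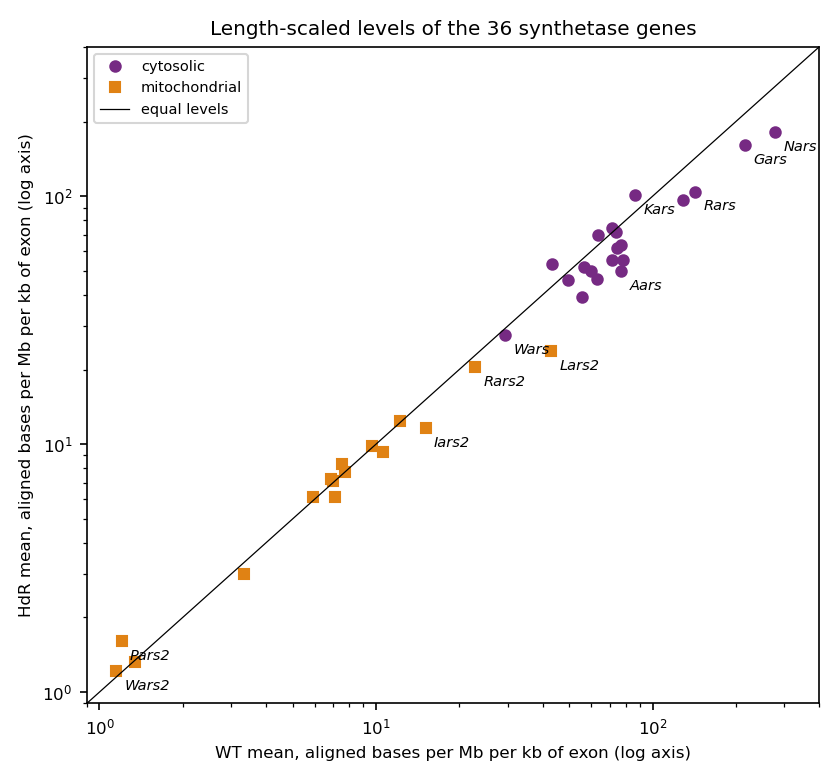
Length-scaled mean level of each of the 36 genes in HdR against WT, on log axes, with circles for cytosolic and squares for mitochondrial genes and a line of equal levels. Cytosolic genes sit at the upper right, most below the line, and most mitochondrial genes lie close to it.

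The other lists of tRNA biology and translation are given beside the 21.2% of all tested genes called higher and the 23.8% called lower. Of 27 genes for tRNA processing, modification and export, 13 were higher (48.1%) and 1 lower (3.7%), with a median of 0.16. The lower gene was Xpot, which encodes the nuclear export receptor for tRNA. It had 237, 263, 209.7 and 230.0 aligned bases per Mb in WT 1 to 4 and 161, 151, 159 and 163 in HdR 1 to 4, a difference of -0.56 ± 0.056 in log2 units (SE, adjusted p = 2.36e-06, limma). Xpo5, which encodes another export receptor, the tRNA 3′ processing gene Elac2 and the tRNA methyltransferase subunit gene Trmt6 rose by 0.30, 0.27 and 0.37 on the log2 scale. Of 26 cytosolic initiation and elongation factors, 14 were higher (53.8%) and 5 lower (19.2%), with a median of 0.11. Eif2b1, Eif3b and Eif4g1 rose by 0.34, 0.27 and 0.26, and Eif2s2, for the beta subunit of the factor eIF2, was at -0.33. Of 16 mitochondrial translation factors and tRNA enzymes 4 were higher (25%) and 2 lower (12.5%), with a median of 0.10, so the share higher was near that of all genes. Tufm, the mitochondrial elongation factor gene, rose from 101 ± 5.1 in WT to 128 ± 3.67 in HdR (± SD, 4 libraries each). Gfm1 and Mrrf rose by 0.14 and 0.22, and Gfm2 was at -0.25.

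Most genes of the ATF4 axis fell. The list held 31 genes for ATF4, its known targets, amino acid synthesis and transport, and the kinases upstream. Of these, 26 were lower (83.9%) and 0 higher (1 higher at an unadjusted limma p under 0.05). Of all tested genes, 23.8% were lower and 21.2% higher. The median log2 difference of the list was -0.76, against -0.01 over all tested genes. Earlier results on these libraries were known when this list was written, so its direction is not independent evidence. Atf4 itself had 277, 267, 272 and 250.1 aligned bases per Mb in WT 1 to 4 and 220.0, 232, 210.5 and 209.8 in HdR 1 to 4, a log2 difference of -0.29 ± 0.042 (SE), with adjusted p = 2.99e-05 by limma. The serine synthesis gene Psph fell from 128 ± 6.62 to 59.1 ± 3.61 and Ddit4, an inhibitor of mTORC1 signalling, from 131 ± 4.21 to 58.3 ± 3.77 (± SD, 4 libraries each). Psat1 and Asns were at -0.92 and -0.88, beyond the -0.62 of Aars. The 4 eIF2α kinase genes Eif2ak1, Eif2ak2, Eif2ak3 and Eif2ak4 were not called, with log2 fold changes of -0.08, 0.07, 0.10 and 0.14.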

How the data were processed

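RNA from 8 keratinocyte libraries (4 WT, 4 HdR) was extracted with the RNeasy mini kit and sequenced from NEBNext Ultra II libraries, per the labels' protocols. Reads were placed on GRCm38, as the submitters' processing notes name it, and the aligner, counting tool, annotation and strand setting are not given in the sources used here. The authors deposited signal: coverage, whole-number sums of aligned bases per gene, unscaled for depth or length. This was read from the values, whose commonest non-zero value is 302, and 16.9% of values under 10 such steps are multiples of it. Longer genes gather more bases.

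Each library was scaled by trimmed-mean factors (30% of log ratios and 5% of mean levels trimmed) to aligned bases per Mb of its scaled total. Log2(level + 1) was fitted for 11870 genes with a mean of at least 1, using R 4.3.3 and limma 3.58.1 (genotype as the only factor, mean trend, robust variance, statmod 1.5.0), two-sided, with Benjamini-Hochberg adjustment. The pseudocount shrinks folds of genes near 1. The fit was also run on simulated data whose noise did not depend on depth or genotype. That run cannot address the depth difference between the genotypes here. Positions and exon lengths came from GENCODE vM21. Alternatives were other scalings, filters, pseudocounts, limma-voom, limma's treat test against a fold of 1.2, a replicate block, thinning, and leaving out each library. The text names every member, and up to 4 genes with the smallest p of each other list, plus Atf4, Aimp1, Eef1e1, the eIF2α kinase genes, Exosc6 and Rab3gap2, named after their values were seen. Members and lists were chosen with earlier results of these data known. Figures used Python 3.11.15 and matplotlib 3.10.9.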

Additional observations from a re-analysis of the deposited data

Results flagged for a closer look

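In 74 groups of 4 libraries checked, 36 genes and the library total in each genotype, 3 had a library far from the other 3 (a gap past Dixon's 95% limit). Chance gives about 1 in 20 such groups. Lars2 in WT 1 was at 256 aligned bases per Mb, against 134 to 143 in the other WT libraries. Wars in HdR 2 was at 105, against 65.8 to 72.2 in the other HdR libraries. Mars in WT 1 was at 224, against 228 to 229, a small difference in absolute terms.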

How the results depend on the processing

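Over 19 alternatives, 8 cytosolic genes (Aars, Cars, Gars, Lars, Nars, Rars, Sars and Yars) were called lower in every one. The number of cytosolic genes called lower was 12 to 14 under all but the test against a fold of 1.2, which gave 8 lower and 0 higher, 0 and 0 mitochondrial genes, and 887 genes in all, against 5346. Leaving out each library gave 12 to 14 cytosolic genes lower and 3 higher, and 3 to 5 mitochondrial genes lower (3 without WT 4, HdR 2, HdR 3 or HdR 4) and 1 higher. With upper-quartile scaling or library totals only, 12 cytosolic genes were lower and 4 higher, and 3 mitochondrial genes were lower. The mitochondrial genes called higher numbered 2 with upper-quartile scaling or limma-voom, and 0 with the filter of 5 aligned bases per Mb in 4 libraries or after thinning. Upper-quartile scaling put 57.7% of all calls higher in HdR, against 47.1%, and moved the median of all genes from -0.01 to 0.03. With the replicate block 13 cytosolic genes were lower, the lost call being Farsb (limma adjusted p = 0.06), and 5 mitochondrial genes. It changed no other synthetase call. Deviations from the genotype mean were not positively correlated to any extent between same-numbered libraries (0.0277, -0.068, -0.222 and 0.0203). Between differently numbered libraries they ran from -0.237 (WT 4 and HdR 2) to 0.248 (WT 3 and HdR 2). Whether libraries of the 2 genotypes share a culture or batch was not tested, and these correlations cannot decide it. With Lars2 left out, the HdR over WT ratio of the summed cytosolic to mitochondrial level was 0.856, against 0.956.

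Hars was called higher with library totals only or upper-quartile scaling (limma adjusted p = 0.0482 and 0.0225), and Sars2 with upper-quartile scaling or limma-voom (0.0449 and 0.0384). Estimates changed sign only in genes not called under any of these settings: with 1 library left out at a time, Wars ran from -0.237 to 0.00555, Aars2 from -0.00762 to 0.0516, Cars2 from -0.0133 to 0.0642, Fars2 from -0.0903 to 0.144, Mars2 from -0.103 to 0.0221, Tars2 from -0.00409 to 0.0576, Wars2 from -0.0193 to 0.126 and Yars2 from -0.0233 to 0.0274. With upper-quartile scaling Qars was at 0.000844, Mars2 at 0.00641 and Yars2 at 0.0375. Yars2 was at 0.0243 with library totals and 0.00517 with median-of-ratios scaling, and Aars2 at -0.0049 with limma-voom and -0.039 after thinning. The cause was not tested. After thinning to the depth of the smallest library, Farsb, Ears2 and Pars2 were no longer called.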
